A study of Mus musculus with 7 samples.

Results

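The genes of oxidative phosphorylation, the process by which mitochondria pass electrons from NADH and succinate to oxygen and use the resulting proton gradient to make ATP, were compared between 2 kinds of mouse skin tumour. Members were taken by symbol from the deposited count table: the 13 protein-coding genes of the mitochondrial chromosome and the nuclear families Nduf, Sdh, Uqcr with Cyc1, Cox4 to Cox8 and Atp5, without the muscle isoforms Cox6a2, Cox7a1 and Cox8b. This gave 105 members among 55423 features, 13 mitochondrially encoded and 92 nuclear. By role they were 43 subunits of complex I, 4 of complex II, 10 of complex III, 20 of complex IV, 20 of complex V and 8 Ndufaf genes for assembly factors of complex I. The symbol rule placed Ndufa4 and Ndufa4l2, which belong to cytochrome c oxidase, with complex IV, and it also took in Cox7a2l, a factor of respiratory supercomplexes, and Atp5s, which is not a classical subunit.

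Tumours of squamous cell carcinoma came from Ivl:BRAFV600E mice, in which a tamoxifen-inducible Cre driven by the involucrin promoter activates the BRAF oncogene in the IVL+ progenitors of the epidermis, and from Ivl:BRAFV600E-SOX2LSL mice, which carry in addition a Rosa26 allele that gives SOX2 with eGFP after recombination. Both groups thus carried the Cre, the BRAF allele and the tamoxifen treatment, started at 7 to 10 weeks of age per the labels, and they differed by the SOX2 allele. Each group had 3 tumours, called A, B and C below, each from another mouse: female, female and male in Ivl:BRAFV600E and male, male and female in Ivl:BRAFV600E-SOX2LSL. Every Ivl:BRAFV600E-SOX2LSL tumour was collected sooner after induction than every Ivl:BRAFV600E tumour, so time and genotype cannot be told apart. No source gives the purity of the tumours, and p-values measure the spread between these tumours only.

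Complexes I, III and IV pump protons, complex V is the ATP synthase, and complex II, succinate dehydrogenase, pumps none and is also an enzyme of the citric acid cycle. All 4 subunits of complex II are nuclear, whereas the other complexes join nuclear subunits with some made inside the mitochondrion, so that both genomes have to be expressed together. Basal keratinocytes and squamous tumours rely on glycolysis as well as on respiration, and striated muscle is the tissue best known for high levels of all 5 complexes.

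In Ivl:BRAFV600E-SOX2LSL tumours, after TMM scaling of the libraries, the 4 complex II genes had positive log2 fold changes. Negative ones were found for 79 of the 102 tested members, against 11529 of all 24433 genes. The median of the nuclear members was negative and turned positive when libraries were scaled by total counts. Of 102 members that could be tested, edgeR called 1, Sdhd, the membrane anchor of succinate dehydrogenase, which rose 1.54-fold. DESeq2 called 10 members, Sdhd higher and 9 lower (8.82%, against 6.36% of all genes lower). For limma there were 6, Sdhd higher and 5 lower (4.9%, against 3.97%). Of all genes, edgeR called 3.90% in either direction. Called higher were 10.5% of the genes with an adjusted p by DESeq2 and 4.80% by limma. With TMM scaling, genes of 5 or more reads in a tumour and all 6 tumours, the 13 mitochondrially encoded mRNAs had negative log2 fold changes and edgeR called none of them. With total counts 10 of the 13 were negative, mt-Co1, mt-Nd3 and mt-Nd4l being the exceptions, and mt-Nd4l was also positive in limma and without Ivl:BRAFV600E tumour B or Ivl:BRAFV600E-SOX2LSL tumour A. Under other settings edgeR called mt-Nd2 lower (upper-quartile scaling and no low-count filter), mt-Nd2 and mt-Nd4 (filterByExpr) or mt-Nd4 (without Ivl:BRAFV600E-SOX2LSL tumour A). The median of the 13 was -0.56 with TMM, against -0.17 for the 89 tested nuclear members and 0.04 for all 24433 genes tested.

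The 6 libraries held between 23565432 and 31152826 counts on genes, and values are given as CPM (counts scaled to a common library size) after TMM, a scaling that assumes most genes to be alike between libraries. Sox2 itself was at 0.72, 0.51 and 0.24 CPM in Ivl:BRAFV600E tumours A, B and C and at 182, 155 and 158 CPM in the other group, in accordance with the genotype labels in all 6 tumours. The summed level of 22 tested skeletal-muscle markers was 11.9 to 28.2 CPM in Ivl:BRAFV600E tumours and 924 to 3965 CPM in Ivl:BRAFV600E-SOX2LSL tumours. Within the second group it was lowest in tumour C. Called higher were 19 markers by edgeR, 20 by DESeq2 and 10 by limma, against 2.39%, 10.5% and 4.80% of all genes given an adjusted p. Ckmt2, Cacna1s and Tnnt3, among others, reached 5 reads only in Ivl:BRAFV600E-SOX2LSL tumours, so their calls are no independent support. Of the 24 muscle markers, 2 had too few counts to test, and Myh4 and Ckmt2 were at 0 in every Ivl:BRAFV600E tumour. Keratinocyte markers, 11 genes of which 0 were called by edgeR (1 higher and 5 lower at an unadjusted p below 0.05, 1 higher and 4 lower by DESeq2, 1 higher and 1 lower by limma), summed to 112500, 180400 and 155300 CPM against 22660, 76640 and 65690 CPM. Among them, named after their values were seen, Krt5 and Krt14 of basal keratinocytes were at 2371 to 3900 CPM and 6528 to 31250 CPM over the 6 tumours, with overlapping groups. Krt1 and Krt10 of differentiating keratinocytes were at 40650 ± 7336 against 8632 ± 6625 CPM (edgeR adjusted p = 0.149) and 32350 ± 3764 against 3878 ± 3396 CPM (0.0935), with the groups apart. Ivl, a further marker of differentiation, overlapped (40.4 to 207.8 against 22.0 to 114.5 CPM, edgeR adjusted p = 0.611). Of the 11 markers, 5 lay lower and 1 higher with the groups apart (45.5% and 9.09%, against 16.0% and 18.2% of all genes), and 5 overlapped. The higher one was Dsg3, at 795 ± 75.4 against 1285 ± 343 CPM (edgeR adjusted p = 0.121). Leukocyte markers summed to 249 to 777 CPM against 632 to 1216 CPM (2 of 9 called higher by edgeR, 6 by DESeq2 and 3 by limma). Fibroblast markers summed to 775 to 5117 CPM against 3980 to 8355 CPM (of 8, 0 called by edgeR, 2 at an unadjusted p below 0.05, 2 higher by DESeq2 and 1 by limma). Endothelial markers summed to 155 to 170 CPM against 158 to 192 CPM (of 6, 0 called by edgeR, 2 at an unadjusted p below 0.05, 1 lower by DESeq2 and 1 by limma). Adipocyte markers summed to 30.9 to 74.2 CPM against 25.5 to 119 CPM (1 of 10 called lower by each of the 3 tools). At an unadjusted p below 0.05, 2 adipocyte markers were higher and 2 lower (20.0% each, against 14.5% and 11.2% of all genes), and 7 of the 10 had positive log2 fold changes. In bulk tissue, fewer cells of a type and less RNA per cell cannot be told apart, and the part of these cell types in the results that follow was not tested unless a value bears on it directly.

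Over all genes, edgeR's quasi-likelihood test with Benjamini-Hochberg adjustment called 954 of 24433 (3.90%), with 585 higher (2.39%) and 369 lower (1.51%) in Ivl:BRAFV600E-SOX2LSL tumours. Among members it called 1 of 102 higher and 0 lower, a share below that of all genes. At an unadjusted p below 0.05 there were 3 members higher and 16 lower (15.7%), against 14.5% and 11.2% of all genes, and 25.7% in either direction. No counts were found for 3 members, which were not tested, namely Cox7b2, Cox8c and a second gene annotated as Atp5o. The 3 Ivl:BRAFV600E-SOX2LSL tumours lay entirely below the 3 Ivl:BRAFV600E tumours for 28 members (27.5%), against 16.0% of all genes, and entirely above for 4 members (3.92%), against 18.2%. Those 4 members were the subunits of complex II.

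**Figure D1:**
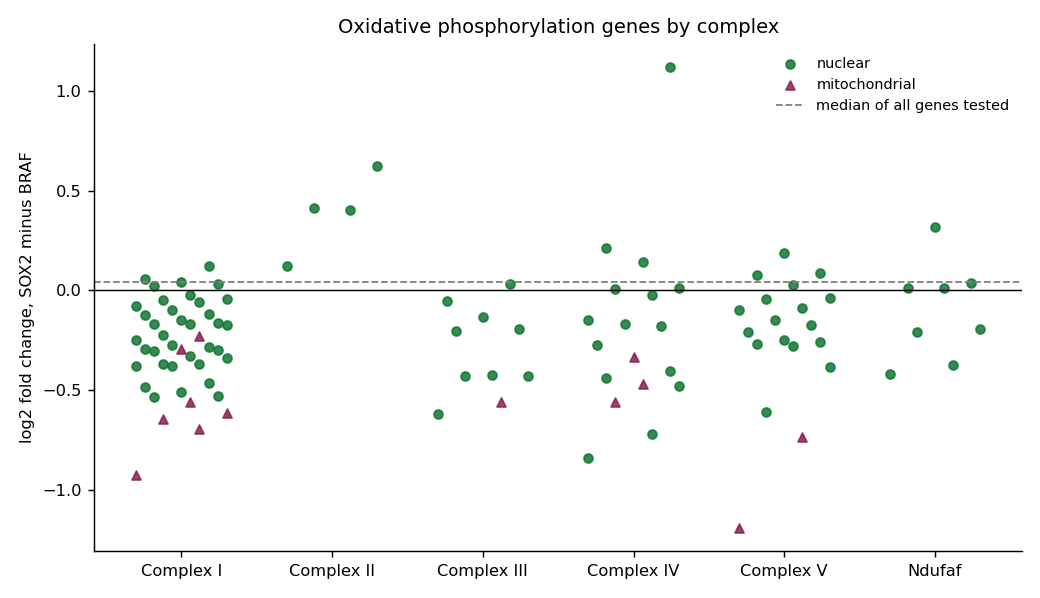
Each point is 1 tested gene, placed by its log2 fold change (Ivl:BRAFV600E-SOX2LSL, "SOX2", minus Ivl:BRAFV600E, "BRAF") on the vertical axis and by complex on the horizontal axis, with circles for nuclear and triangles for mitochondrially encoded genes. All 4 points of complex II lie above 0, between 0.13 and 0.63, and all 13 triangles lie below it, between -1.19 and -0.23, of which 10 are negative when libraries are scaled by total counts. The dashed line is the median of all genes tested, 0.04, and the topmost point, in complex IV, is Cox6b2, with at most 18 counts in a tumour.

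Succinate dehydrogenase is made of a flavoprotein (Sdha) that oxidises succinate, an iron-sulphur protein (Sdhb) that passes the electrons on, and 2 membrane anchors (Sdhc and Sdhd) that hold the haem and the site where ubiquinone is reduced. The start windows of these genes are shown because all 4 members lay higher with the groups apart, although edgeR called only Sdhd. They come from RefSeq (GRCm38.p6), span 250 bases before to 50 bases after the annotated start and read 5′ to 3′ on the gene's strand, and Sdhc had no entry. Capitals mark matches on either strand to the core of the NRF1 motif (GCGCANGCG) or of the ETS motif (CCGGAAG), the motifs of 2 factors known for the control of nuclear respiratory genes. No 2 of these matches overlap. The windows are chr13:74350191-74350490 (minus strand) for Sdha, chr4:140961021-140961320 (plus strand) for Sdhb and chr9:50603800-50604099 (minus strand) for Sdhd:
Sdha: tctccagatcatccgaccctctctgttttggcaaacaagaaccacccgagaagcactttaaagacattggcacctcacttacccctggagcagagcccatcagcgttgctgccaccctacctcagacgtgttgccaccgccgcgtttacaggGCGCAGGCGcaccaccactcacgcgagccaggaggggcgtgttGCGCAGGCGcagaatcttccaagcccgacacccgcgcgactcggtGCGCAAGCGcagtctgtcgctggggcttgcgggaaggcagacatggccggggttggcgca
Sdhb: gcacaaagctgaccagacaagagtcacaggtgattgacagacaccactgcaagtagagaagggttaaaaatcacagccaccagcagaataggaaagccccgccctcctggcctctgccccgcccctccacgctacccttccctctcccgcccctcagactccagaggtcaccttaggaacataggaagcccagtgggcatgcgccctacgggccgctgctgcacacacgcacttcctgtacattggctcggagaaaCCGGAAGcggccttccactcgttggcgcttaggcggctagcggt
Sdhd: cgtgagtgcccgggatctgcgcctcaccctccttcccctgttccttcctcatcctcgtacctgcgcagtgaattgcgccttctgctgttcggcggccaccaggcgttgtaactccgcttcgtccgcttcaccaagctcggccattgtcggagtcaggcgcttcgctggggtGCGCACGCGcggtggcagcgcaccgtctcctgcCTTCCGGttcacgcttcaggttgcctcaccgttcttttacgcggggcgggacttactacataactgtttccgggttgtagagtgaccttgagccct
The Sdha window holds 3 NRF1 matches, the Sdhb window 1 ETS match just after the start, and the Sdhd window 1 NRF1 match that begins 79 bases and 1 ETS match that begins 46 bases before the start. Among 72 nuclear members found by symbol in the table, 22 (30.6%) had an NRF1 match and 18 (25%) an ETS match, against 7.0% and 9.9% of all 27025 genes with such a window. The YY1 core AAGATGGC was in 10 of the 72 (13.9%, against 3.2%), and the SOX core CATTGTT in 2 of them (2.8%, against 4.3%) and in none of the 3 windows shown. Matches are letters in a window and say nothing on binding in these tumours.

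Sdhd (chromosome 9, 50596357 to 50603812, minus strand) was at 23.4, 22.5 and 23.5 CPM in Ivl:BRAFV600E tumours A, B and C and at 32.2, 36.3 and 38.7 CPM in Ivl:BRAFV600E-SOX2LSL tumours. The groups did not overlap, and the 3 Ivl:BRAFV600E values lay within 1 CPM of each other. The log2 fold change was 0.63 (SE 0.127, n = 3 per group) with an adjusted p of 0.0455 in edgeR, close to the threshold of 0.05. DESeq2 gave an adjusted p of 0.00098 and limma 0.0181. The call was lost with upper-quartile scaling (log2 fold change 0.53, adjusted p = 0.0748) and with sex in the design (0.65, adjusted p = 0.103). It was also lost in 5 of the 6 fits that left out 1 tumour. Over these 6 fits the log2 fold change was 0.57 to 0.69 and the adjusted p ranged from 0.0189 without Ivl:BRAFV600E-SOX2LSL tumour A to 0.172 without Ivl:BRAFV600E tumour A. The sum of muscle markers in Ivl:BRAFV600E-SOX2LSL tumours A, B and C was 3560, 3965 and 924 CPM, and its part in the level of Sdhd or of the other complex II genes was not tested. Timm8b, a mitochondrial import gene that is read in the opposite direction from a start within the Sdhd window, had a log2 fold change of -0.15 (adjusted p = 0.745).

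The other anchor, Sdhc (chromosome 1, 171127165 to 171150603), was at 36.6, 44.8 and 41.5 CPM against 56.0, 52.9 and 53.7 CPM. Its log2 fold change of 0.40 (SE 0.122) did not pass the test (adjusted p = 0.102). Sdhb (chromosome 4, 140961203 to 140979193) was at 21.3, 28.3 and 19.9 CPM against 29.4, 33.4 and 29.9 CPM, a log2 fold change of 0.42 (SE 0.168, adjusted p = 0.177). In both genes the groups were apart, for Sdhb by the narrow gap between 28.3 and 29.4 CPM. Sdha (chromosome 13, 74322254 to 74350280) was at 94.6, 98.3 and 97.5 CPM against 100.3, 108.0 and 108.4 CPM, a log2 fold change of 0.13 (SE 0.107, adjusted p = 0.492). Per kilobase of exon, Sdhd was at 18.8 ± 0.44 CPM (SD, n = 3) in Ivl:BRAFV600E and 29.1 ± 2.67 CPM in Ivl:BRAFV600E-SOX2LSL tumours, and Sdha at 23.5 ± 0.48 and 25.6 ± 1.10 CPM, so that the ratio of Sdhd to Sdha went from 0.77 to 0.83 in the first group to 1.08 to 1.2 in the second, without overlap.

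**Figure D2:**
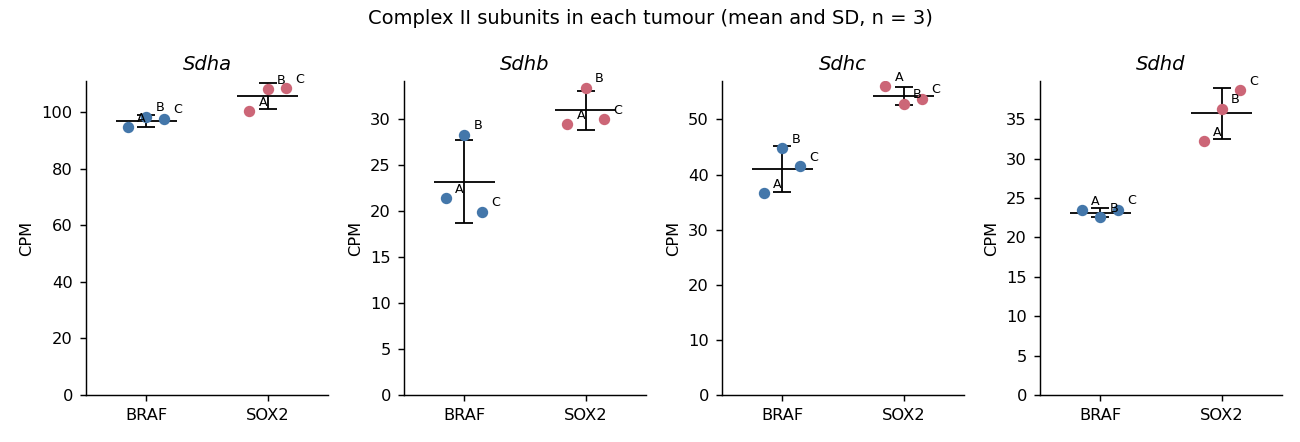
CPM of each complex II gene on a linear axis from 0, with 1 point per tumour (letters A to C), a horizontal line at the mean and bars of 1 SD for the 3 Ivl:BRAFV600E ("BRAF") and the 3 Ivl:BRAFV600E-SOX2LSL ("SOX2") tumours. The groups do not overlap in any panel, and the gap is widest for Sdhd, whose mean goes from 23.2 to 35.8 CPM.

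The mitochondrial chromosome encodes 7 subunits of complex I, cytochrome b of complex III, 3 of complex IV and 2 of complex V, transcribed as long precursors from both strands. Counts were very uneven among them. mt-Co1 alone held 49.6% to 59.1% of the mitochondrially encoded member counts, while mt-Co2, mt-Co3, mt-Atp6, mt-Nd3 and mt-Nd4l were at 0.39 to 7.11 CPM, far under the levels of mt-Co1 although they stem from the same precursor. Between 97.0% and 99.8% of the 150-base windows of these 5 transcripts also occur in annotated pseudogenes on chromosome 1 (24611535 to 24616197), copies of mitochondrial DNA in the nuclear genome, and whether reads that fit both places were counted is not given in the sources used here. The levels of these 5 genes are therefore uncertain. Their log2 fold changes lay between -0.73 and -0.23, and none was called by edgeR, DESeq2 or limma. The same copies hold 59.2% of the windows of mt-Nd4 and 23.6% of those of mt-Co1, and none of those of mt-Nd1, mt-Nd2, mt-Nd5, mt-Nd6, mt-Cytb or mt-Atp8.

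Among the 7 well-counted mRNAs, mt-Nd2 had the most negative fold change. It was at 676.7, 650.5 and 465.4 CPM in Ivl:BRAFV600E tumours and 299, 372 and 273 CPM in Ivl:BRAFV600E-SOX2LSL tumours, a log2 fold change of -0.93 (SE 0.201, adjusted p = 0.0528). The other subunits of complex I in this set pointed the same way. mt-Nd4 was at 425, 423 and 400 CPM against 259, 298 and 291 CPM (-0.56, SE 0.126, adjusted p = 0.0567). mt-Nd5 was at 1406, 1446 and 1195 CPM against 795, 947 and 849 CPM (-0.64, SE 0.161, adjusted p = 0.0701). mt-Nd1 was at 1485, 1710 and 1209 CPM against 821, 993 and 907 CPM (-0.69, SE 0.186, adjusted p = 0.0797). In each of these genes the 3 Ivl:BRAFV600E-SOX2LSL tumours lay below the 3 others after TMM scaling, as they did in 16.0% of all genes.

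mt-Nd6, the only mitochondrially encoded member on the minus strand, was at 146, 186 and 137 CPM against 96.7, 117 and 93.0 CPM (log2 fold change -0.61, adjusted p = 0.0791), and its reads cannot be told from those of the overlapping end of mt-Nd5 where strand was not used. mt-Cytb was at 1188, 1318 and 999.5 CPM against 791, 835 and 750.3 CPM (-0.56, adjusted p = 0.0959). Both again separated the groups, as did 9 of the 13 mitochondrially encoded members with TMM (69.2%, against 16.0% of all genes lower). The log2 fold change nearest to 0 among the 7 was that of mt-Co1, the catalytic subunit of cytochrome c oxidase, at 5252, 6411 and 4901 CPM against 4062, 4470 and 4597 CPM (-0.34, SE 0.205, adjusted p = 0.34), and it turned to 0.02 when libraries were scaled by total counts. mt-Atp8 had at most 6 counts in a tumour, and its log2 fold change of -1.19 (SE 0.838) carries little information.

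In the same fit of all 6 tumours none of the 13 was called by edgeR. It gave 6 of them, all lower, an unadjusted p below 0.05 (46.2%, against 11.2% of all genes). DESeq2 called 6 lower (46.2%, against 6.36% of all genes) and limma 5 (38.5%, against 3.97%). For members as a whole DESeq2 called 1 higher and 9 lower (8.82% of the 102 tested, against 6.36% of all 24433 genes tested). It gave no adjusted p for mt-Atp8, and of the 20046 genes that had one it called 10.5% higher and 7.76% lower. By limma 1 member was called higher and 5 lower (4.9%), against 4.80% and 3.97% of 24433 genes. The member called higher was Sdhd in both. The 9 of DESeq2 were mt-Nd1, mt-Nd2, mt-Nd4, mt-Nd5, mt-Nd6 and mt-Cytb with the nuclear genes Ndufs6, Uqcrb and Cox7b, and the 5 of limma were the same mitochondrial genes without mt-Nd6. The 12S and 16S ribosomal RNAs of the mitochondrion, mt-Rnr1 and mt-Rnr2, remain after depletion of ribosomal RNA to an unknown degree. mt-Rnr2 was at 4533, 7135 and 4125 CPM against 3031, 3592 and 1284 CPM (-1.0, SE 0.414, adjusted p = 0.186), lowest in tumour C.

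**Figure D3:**
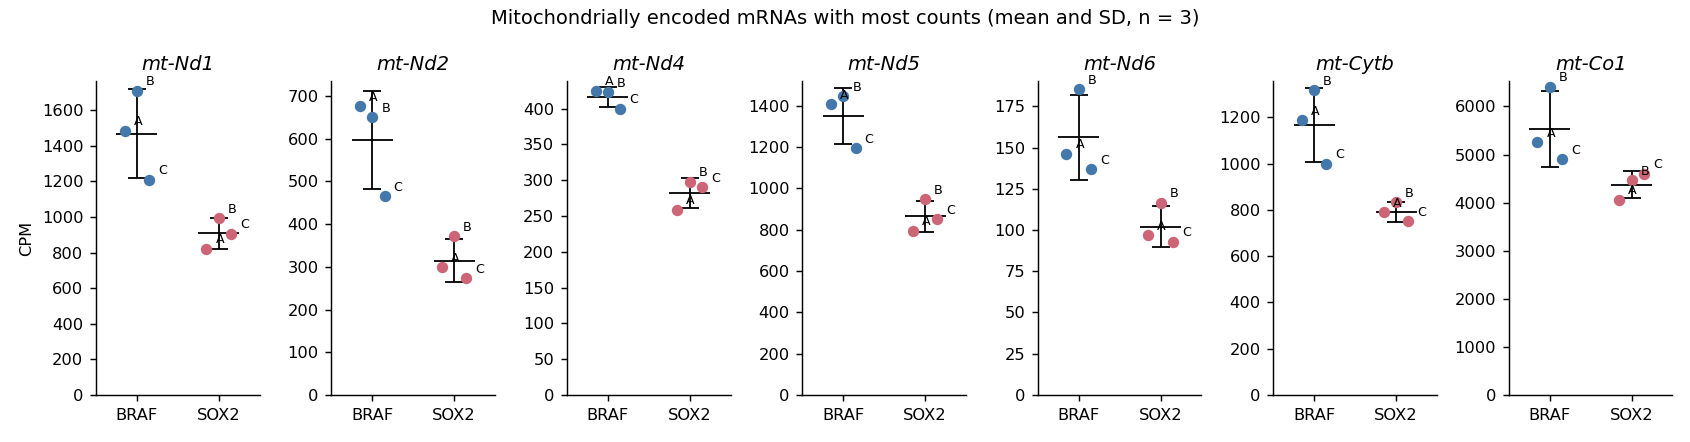
CPM of the 7 mitochondrially encoded mRNAs with the most counts on linear axes from 0, with 1 point per tumour (A to C), the mean and 1 SD. In every panel the 3 Ivl:BRAFV600E-SOX2LSL ("SOX2") points lie below the 3 Ivl:BRAFV600E ("BRAF") points, for example 416 ± 13.9 against 282 ± 20.7 CPM for mt-Nd4. With TMM, 9 of the 13 mitochondrially encoded members lie lower with the groups apart (69.2%, against 16.0% of all genes). As a summed share of all counts, the groups overlap.

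Nuclear core subunits of complex I carry NADH oxidation and the iron-sulphur chain. The log2 fold changes of Ndufv1, Ndufv2, Ndufs1, Ndufs3, Ndufs7 and Ndufs8 lay between -0.29 (Ndufs1) and 0.04 (Ndufs7), none of these 6 was called, and only Ndufs1 among them separated the groups, at 80.7, 79.9 and 77.3 CPM against 55.9, 71.3 and 67.1 CPM. Over all 36 nuclear genes of complex I the median was -0.20 and 0 were called by edgeR. Of the 36, 31 were negative, against 11529 of all 24433 genes. At an unadjusted p below 0.05, 5 were lower (13.9%, near the 11.2% of all genes) and 0 higher, and 10 lay lower with the groups apart (27.8%, against 16.0% of all genes). DESeq2 called 1 of them, Ndufs6, an accessory subunit, named here for that call after its values were seen. Ndufs6 was at 19.8, 21.9 and 17.5 CPM against 12.7, 14.5 and 13.7 CPM, a log2 fold change of -0.53 (SE 0.15, adjusted p = 0.0891 in edgeR and 0.0181 in DESeq2), and Mrpl36 overlaps it on the other strand.

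In complex III the catalytic subunits (Cyc1, which is cytochrome c1, and the Rieske protein Uqcrfs1) and the core proteins Uqcrc1 and Uqcrc2 had log2 fold changes between -0.20 and 0.03, with overlapping groups for all 4. Uqcrc1, for example, was at 181 ± 9.46 CPM against 165 ± 39.6 CPM, with tumour A at 120.0 CPM and tumour C at 196 CPM. Of the 5 small nuclear subunits, only Uqcrb had groups apart. Uqcrb, which binds near the quinone site, was at 32.6, 42.4 and 33.6 CPM against 19.4, 24.7 and 26.6 CPM (log2 fold change -0.62, SE 0.175, adjusted p = 0.0903 in edgeR and 0.0243 in DESeq2). The other 4 had log2 fold changes between -0.43 and -0.19 with overlapping groups, among them Uqcr10 at -0.43 (adjusted p = 0.219).

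Complex IV holds several pairs of isoforms. Cox4i1, the common isoform of subunit 4, was at 98.4, 118 and 106 CPM against 129, 117 and 128 CPM, a log2 fold change of 0.21 (SE 0.123, adjusted p = 0.314) with overlapping groups, and it overlaps Emc8 on the other strand. Its hypoxia- and lung-associated paralog Cox4i2 was at 0.64 ± 0.184 against 0.58 ± 0.111 CPM, and took 0.81% to 1.68% of the level of the pair per kilobase in all 6 tumours. Ndufa4, once assigned to complex I, was at 106 ± 10.1 against 107 ± 2.65 CPM. Its hypoxia-inducible paralog Ndufa4l2 was at 54.5, 91.2 and 60.2 CPM against 24.7, 35.9 and 54.3 CPM (-0.84, SE 0.317, adjusted p = 0.156). The groups of Ndufa4l2 were apart by less than 1 CPM, and Shmt2 overlaps it on the other strand. As a share of the pair per kilobase, Ndufa4l2 made up 39.3%, 54.4% and 39.4% against 22.3%, 30.4% and 38.8%.

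Cox7b, a small subunit encoded on the X chromosome, was at 57.2, 73.2 and 42.9 CPM against 32.0, 42.0 and 31.2 CPM (-0.72, SE 0.221, adjusted p = 0.106 in edgeR and 0.0389 in DESeq2). Cox6b1, which links the monomers of the cytochrome c oxidase dimer, was at 104, 131 and 102 CPM against 71.3, 84.2 and 92.9 CPM (-0.44, SE 0.159, adjusted p = 0.145). Cox7a2 was at 37.3, 43.0 and 30.0 CPM against 22.0, 27.6 and 29.7 CPM (-0.48, SE 0.184, adjusted p = 0.162). These 3 separated the groups, and none passed the test in edgeR. Cox7a2l, at 51.5 ± 5.33 against 57.0 ± 2.83 CPM, and Cox8a, at 68.7 ± 9.48 against 69.4 ± 4.39 CPM, did not separate them, and Cox6b2, the testis isoform, was at or below 0.50 CPM in every tumour.

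In the ATP synthase, the catalytic subunits alpha (Atp5a1) and beta (Atp5b) and the gamma shaft (Atp5c1) had log2 fold changes between -0.21 and -0.10 with overlapping groups. Atp5b was the most expressed nuclear member per kilobase, at 211 ± 26.6 CPM per kilobase in Ivl:BRAFV600E and 182 ± 25.3 in Ivl:BRAFV600E-SOX2LSL tumours. The 3 genes for the rotating c-ring, Atp5g1, Atp5g2 and Atp5g3, had log2 fold changes of -0.26 to 0.09. Atp5g1 took 10.9% to 11.4% of their summed level per kilobase in Ivl:BRAFV600E tumours and 8.51% to 10.3% in the others, with no overlap. The lowest log2 fold change of a nuclear member of this complex was that of Atp5k, the e subunit of the dimer interface, at 7.13, 11.3 and 6.60 CPM against 4.59, 6.09 and 5.71 CPM (-0.61, SE 0.263, adjusted p = 0.199). Of the 17 tested nuclear genes of complex V none was called by edgeR and none reached an unadjusted p below 0.05, and DESeq2 and limma also called 0.

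The 8 Ndufaf genes, which help to assemble complex I and are not part of it, split evenly, with 4 positive and 4 negative log2 fold changes. None was called by edgeR, DESeq2 or limma, and 0 reached an unadjusted p below 0.05. Ndufaf4 was at 22.0, 16.3 and 17.1 CPM against 12, 15.3 and 14.2 CPM, without overlap (-0.42, SE 0.181, adjusted p = 0.20).

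How the libraries were scaled decided the sign of the nuclear median. The median log2 fold change of nuclear members was -0.17 with TMM, -0.18 with DESeq2's size factors and -0.26 with upper-quartile scaling, but 0.18 when each library was divided by its total count, an alternative added after the data were seen. Total counts moved the median of all genes as well, from 0.04 to 0.39, a shift of 0.35, because the TMM factors were 0.82 to 0.94 in Ivl:BRAFV600E and 1.07 to 1.26 in Ivl:BRAFV600E-SOX2LSL libraries. Relative to the median of all genes, nuclear members stood at -0.21 with TMM and -0.22 with total counts, mitochondrially encoded members at -0.60 and -0.61, and complex II at 0.37 and 0.38. With total counts edgeR called 4 members, all higher, namely Sdhb, Sdhc, Sdhd and Cox4i1. The direction of complex II was thus positive and that of the mitochondrial median negative under all 4 scalings, whereas the direction of the nuclear median was negative under 3 and positive under total counts.

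**Figure D4:**
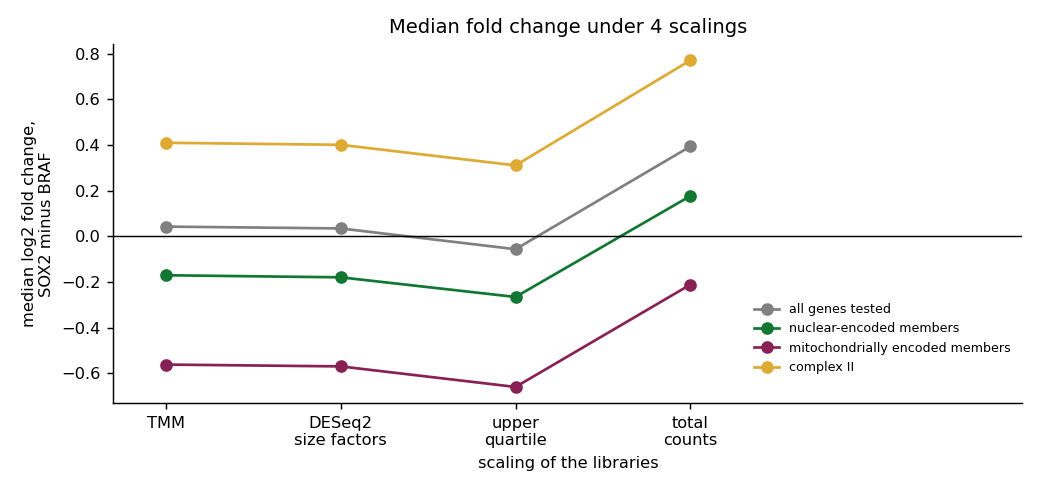
Median log2 fold change (Ivl:BRAFV600E-SOX2LSL minus Ivl:BRAFV600E, vertical axis) of all genes tested, nuclear members, mitochondrially encoded members and complex II under 4 scalings of the libraries (horizontal axis, lines join the same set). The 4 sets keep their order, and all of them move up by about the same step with total counts, from -0.17 to 0.18 for nuclear members.

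Ratios within a library need no scaling. Mitochondrially encoded counts per count on nuclear members were 2.28, 2.27 and 2.08 in Ivl:BRAFV600E tumours and 1.88, 1.81 and 1.63 in Ivl:BRAFV600E-SOX2LSL tumours, and the groups did not overlap. Without mt-Co1 the ratio was 1.15, 1.07 and 0.99 against 0.81, 0.80 and 0.67. Complex II took 3.78%, 3.61% and 4.08% of the counts on nuclear members in the first group and 5.74%, 5.17% and 4.85% in the second. Sdhd took 0.50%, 0.42% and 0.53% against 0.85%, 0.82% and 0.81%. Each of the 4 subunits had a higher share in all 3 Ivl:BRAFV600E-SOX2LSL tumours than in any Ivl:BRAFV600E tumour. Such a ratio shows unequal change of its parts and not which of them moved. Of all counts, nuclear members took 0.44%, 0.44% and 0.40% in Ivl:BRAFV600E and 0.48%, 0.48% and 0.51% in Ivl:BRAFV600E-SOX2LSL tumours, higher in the second group without overlap. Mitochondrially encoded members took 1.0%, 1.0% and 0.83% against 0.90%, 0.86% and 0.83%, with overlapping groups, and both genomes together took 1.23% to 1.45% against 1.34% to 1.37%.

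**Figure D5:**
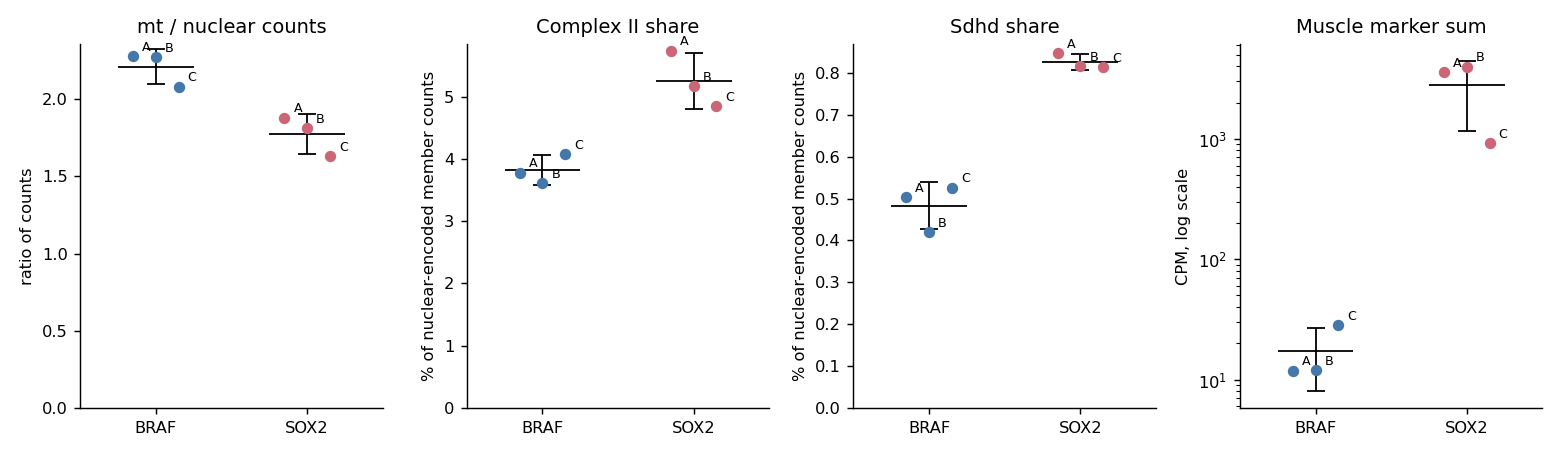
From left to right, for each tumour (A to C, with mean and 1 SD): mitochondrially encoded counts per count on nuclear members, complex II and Sdhd as a percentage of the counts on nuclear members, and the summed CPM of skeletal-muscle markers on a log axis. The first ratio is lower (1.63 to 1.88 against 2.08 to 2.28) and both shares are higher in the 3 Ivl:BRAFV600E-SOX2LSL ("SOX2") tumours, and tumour C of that group has the lowest muscle sum.

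Muscle-type members of the chain were counted apart from the 105. Cox6a2, the subunit 6a isoform of heart and skeletal muscle, had 0 counts in all 3 Ivl:BRAFV600E tumours and 83, 96 and 22 counts in the others, at least 14.5-fold higher against a floor of 3 counts per library (adjusted p = 0.0294). Cox8b had 2, 0 and 1 counts against 59, 70 and 19 counts, at least 10.7-fold higher against the same floor (adjusted p = 0.0269). Cox6a2 and Cox8b reached the read threshold for testing only in Ivl:BRAFV600E-SOX2LSL tumours, so their calls are no independent support. Cox7a1 had a log2 fold change of 2.02 and was called by DESeq2 (adjusted p = 0.0357) but not by edgeR (adjusted p = 0.0982). The part of the muscle markers in these levels was not tested.

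Genes around the chain gave few calls. Of 20 tested genes of the citric acid cycle and pyruvate dehydrogenase none was called by edgeR (2 higher at an unadjusted p below 0.05, 10.0% against 14.5% of all genes, and 1 higher by DESeq2), with a median of 0.04. Pdhb, the beta subunit of pyruvate dehydrogenase, was nearest, at 34.2 ± 5.96 against 49.9 ± 2.05 CPM (0.54, adjusted p = 0.0927). Of 19 genes for electron carriers and ubiquinone synthesis edgeR called 1, which was higher (2.39% of all genes were), DESeq2 1 higher and 2 lower (10.5%, against 6.36% of all genes lower), and limma 1 higher and 1 lower (5.26%, against 3.97%). The edgeR call was Coq8a, an atypical kinase of ubiquinone synthesis, at 1.43, 0.92 and 1.81 CPM against 14.2, 21.8 and 9.86 CPM (3.46, SE 0.387, adjusted p = 0.0129). The muscle sums of the same 3 Ivl:BRAFV600E-SOX2LSL tumours were 3560, 3965 and 924 CPM, and their part in the level of Coq8a was not tested. Of 37 assembly factors none was called by edgeR (3 higher and 3 lower at an unadjusted p below 0.05, 8.11% each, against 14.5% and 11.2% of all genes, 2 higher and 1 lower by DESeq2, 1 higher by limma), with a median of -0.01.

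Of 31 tested genes that express the mitochondrial genome, 0 were called by edgeR, with a median of -0.11. At an unadjusted p below 0.05 there were 2 higher (6.45%) and 4 lower (12.9%), against 14.5% and 11.2% of all genes, and DESeq2 called 3 lower and limma 2. The groups were apart for 2 genes higher and 6 lower (19.4%, against 16.0% of all genes). Lrpprc, which stabilises mitochondrial mRNAs, was at 98.2, 92.0 and 91.5 CPM against 50.8, 65.2 and 66.0 CPM, with the groups apart (-0.63, SE 0.139, adjusted p = 0.0543). Elac2, which cuts transfer RNAs out of the mitochondrial precursor, was at 55.8 ± 3.15 against 36.0 ± 5.94 CPM (-0.63, adjusted p = 0.065). Of 77 genes for mitochondrial ribosomal proteins 0 were called by edgeR (2 lower by DESeq2, 0 by limma), with a median of -0.16 and 61 of 77 negative. At an unadjusted p below 0.05, 1 was higher and 11 lower (14.3%, against 11.2% of all genes), and 4 lay higher and 24 lower with the groups apart (31.2% lower, against 16.0%). Of 12 regulators of mitochondrial biogenesis 0 were called by edgeR (1 higher at an unadjusted p below 0.05, 8.33% against 14.5% of all genes, 0 by DESeq2, 1 higher by limma), with a median of 0.10. The 6 tested carriers of ADP, ATP and phosphate also gave 0 calls by edgeR, DESeq2 and limma (1 higher at an unadjusted p below 0.05, 16.7% against 14.5% of all genes), with a median of -0.13, and Slc25a4, the ADP/ATP carrier of heart and muscle, was at 50.3, 49.9 and 40.2 CPM against 132, 69.7 and 58.4 CPM (0.89, adjusted p = 0.13).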

How the data were processed

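RNA of bulk tumours was sequenced after depletion of ribosomal RNA. Per the submitters' processing notes and the methods of the study, the authors checked reads with FastQC 0.11.8, removed adaptors with TrimGalore, mapped to GRCm38 by HISAT2 2.1.0, summed reads over genes by featureCounts (Subread 1.6.3) and deposited raw counts without normalisation. The strand and multimapping settings are not given in the sources used here. Columns are named by mouse and were assigned to groups with the study's list of mice, and 1 column that this list does not name was not used. The labels hold 4 Ivl:BRAFV600E samples, of which 3 were analysed.

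Genes reaching 5 reads in 1 or more tumours entered the test, made in R 4.3.3 by edgeR 4.0.16 (TMM, quasi-likelihood test, Benjamini-Hochberg adjustment at 0.05). Alternatives were DESeq2 1.42.0, limma 3.58.1 (voom with sample weights), other scalings and filters, sex as a covariate and each tumour left out. Scripts were tested on simulated data. Coordinates are those of GENCODE M21 (GRCm38). The genes named were the mitochondrially encoded and core members, isoform pairs, all called members, the 3 smallest p per direction in each complex and the same in the other lists. Members and lists were chosen with earlier results of these data known. Libraries held 23565432 to 31152826 counts. A floor of 3 counts, set by choice and not measured, was used for bounds on fold changes.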

Additional observations from a re-analysis of the deposited data

How the results depend on the processing

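Of the 60 tested members that the naming rule took in, not all of them named in the text, 42 kept the sign of their log2 fold change in every one of the 15 planned settings that gave them a value. Once total-count scaling, added after the data were seen, was included, 30 did so. That scaling moved the median of all genes from 0.04 to 0.39, while the nuclear median relative to it was -0.21 with TMM and -0.22 with total counts. The 13 mitochondrially encoded members had no value where mitochondrial genes were left out, and Cox6b2 and mt-Atp8 had none with filterByExpr. With total counts 1974 genes and 4 members were called, all 4 members higher, the nuclear median turned to 0.18, the mitochondrial median moved to -0.21, and mt-Co1 turned to 0.02. Upper-quartile scaling called 0 members higher and 1 lower (mt-Nd2). Without a filter on low counts 1759 genes and 2 members were called, 1 of them lower, and with filterByExpr 3 members, 2 of them lower. DESeq2 called 3653 genes and 10 members, 9 of them lower, and limma 2142 genes and 6 members, 5 of them lower. With sex in the design 228 genes and 0 members were called, 0 of them higher. The cause of these shifts was not tested. With each tumour left out, the genes called ranged from 22 (without Ivl:BRAFV600E tumour A) to 1575 (without Ivl:BRAFV600E-SOX2LSL tumour A), the members called from 0 to 2, those higher from 0 to 1 and those lower from 0 to 1. Of these 6 fits, that without Ivl:BRAFV600E-SOX2LSL tumour A alone called Sdhd higher, and it also called mt-Nd4 lower. No paired analysis was possible because the columns carry no replicate number. Depth limits mt-Atp8, which had at most 6 counts in a tumour.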
